A study of Mus musculus with 4 samples.

Results

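The collagen genes were described in ureters of Fgfr1/2 mutant and control mouse embryos. Their probes were the non-control probes of the array whose gene name has the form Col, digits, a, digits, which gave 69 of 39429 probes and 44 genes. The genes fell into 11 fibrillar, 8 basement membrane, 9 FACIT (fibril-associated collagens with interrupted triple helices) and 16 other collagens. At least 1 probe passed the filter on dim signals for 38 of the 44 genes, through 56 of the 69 probes, and a gene with none is not among the counts below.

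The ureter is the tube that carries urine from the kidney to the bladder. It was dissected from NMRI embryos at E14.5 (embryonic day). cDKO embryos (conditional double knockout) carried a cre allele at Tbx18 together with 2 floxed alleles at each of Fgfr1 and Fgfr2, the genes of 2 receptors for fibroblast growth factors. Controls are labelled as floxed on at least 1 allele of Fgfr1 and of Fgfr2, with the other allele left unspecified, and with no cre. Cre made from the Tbx18 locus acts in the mesenchyme around the ureteric epithelium, so the labels describe loss of the receptors there and not in the epithelium, and no control carries the Tbx18 cre allele alone. RNA of both genotypes was hybridised together on each of 4 arrays, so that each array gives 1 ratio of cDKO over control. The labels name no animals or pools, and p-values therefore measure only the spread between these 4 pairs of extracts.

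Collagens are built from 3 chains that wind into a triple helix, in which glycine recurs at a regular step. Fibrillar collagens form the tensile fibres of connective tissue, type IV collagen forms the sheet of the basement membrane on which epithelium, muscle cells and vessels rest, and FACIT collagens decorate fibrils. In the ureter the mesenchyme around the epithelium gives rise to smooth muscle and to the outer connective tissue, and a basement membrane separates epithelium from mesenchyme.

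The repeat that defines the family is shown for the 3 probes that hold at least 6 codons for glycine (GGN) in an open frame. Shorter runs in other collagen probes were not marked. In each line the capitals mark these codons in the frame that holds most of them. The 3 probes lie in the coding part of a triple helix and belong to genes whose probes differed in value.
Col14a1 (mm9 chr15:55347733-55347792, plus strand): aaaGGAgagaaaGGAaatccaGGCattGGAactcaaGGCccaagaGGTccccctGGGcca
Col25a1 (mm9 chr3:130270497-130270556, plus strand): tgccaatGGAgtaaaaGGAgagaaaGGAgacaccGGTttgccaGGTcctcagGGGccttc
Col15a1 (mm9 chr4:47283786-47283845, plus strand): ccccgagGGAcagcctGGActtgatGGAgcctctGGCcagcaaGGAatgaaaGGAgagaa
At least 6 such codons in an open frame were found in 3 of the 69 collagen probes (4.35%) and in 103 of all 39429 probes (0.261%). The Col14a1 probe has 7 of them, with 1 step out of register. Another 12 collagen probes (17.4%) hold AATAAA or ATTAAA, the hexamers of polyadenylation signals, on the strand printed on the array, against 16.7% of all probes. Exons and untranslated regions are not stated, because no annotation of build mm9 was used here.

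Each array had 157716 spots, and 66.1% to 71.8% of them were well above background in the cDKO channel and 64.9% to 72.6% in the control channel, with none saturated. Replicates 1 and 2 lay on slide 1 and replicates 3 and 4 on slide 2, and per the file headers the slides were read in separate scans. The cDKO RNA was in Cy5 on replicates 1 and 3 and in Cy3 on replicates 2 and 4. Among the receptor genes of the genotype, Fgfr2 stood above the control on all 4 arrays (log2 ratio 0.59 ± 0.07 SE, adjusted p = 0.0356) and Fgfr1 below it on all 4 (-0.40 ± 0.10, adjusted p = 0.117). The labels do not say which exons are flanked by loxP sites, so these probes do not check the labels. With dissected tissue, fewer cells of a type and less RNA per cell cannot be told apart.

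No collagen gene passed the test for a difference between cDKO and control (limma, 0 of 38 at an adjusted p under 0.05), where 165 of the 19365 genes tested, or 0.852%, did. The lowest adjusted p values of the family were 0.0578 for Col2a1 and 0.0587 for Col18a1. At an unadjusted p under 0.05, 13 of the 38 were higher in cDKO ureters, against 11.7% of all genes, and 3 were lower, against 7.88%. The fitted log2 ratio was above 0 for 31 of the 38 collagens (81.6%) and for 52.7% of all genes, with medians of 0.12 and 0.01. Without replicate 3 the family median was 0.18. On all 4 arrays 7 collagens lay above 0, against 13.4% of all genes, and 0 lay below 0 on all 4, against 11.8%.

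The arrays differed from each other. The family's median log2 ratio was 0.16 on replicate 1, 0.31 on replicate 2, -0.07 on replicate 3 and 0.18 on replicate 4, while the median of all genes stayed between -0.01 and 0.01. Replicate 3 held the lowest of the 4 ratios for 24 of the 38 genes, and 13 collagens lay above 0 on it, against 29 on replicate 1, 32 on replicate 2 and 29 on replicate 4. The signed log2 ratio was higher on slide 1 than on slide 2 for 31 of the 38 genes, with family medians of 0.22 on slide 1 and 0.06 on slide 2. In the test of the difference between slides none of the 38 passed after adjustment (all genes 0.893%). At an unadjusted p under 0.05 there were 13 with a higher signed ratio on slide 1 (all genes 8.52%) and 2 with a lower one, Col11a2 and Col25a1 (all genes 5.77%). The sign matters for genes with a fitted value below 0. Col24a1, Col5a3 and Col14a1 are among the 13 and lay farther from 0 on slide 2, and Col25a1 lay farther from 0 on slide 1. With slide as a term in the fit, which leaves 1 residual degree of freedom, 11 collagens rose in cDKO ureters (all genes 8.01%) and 2 fell (all genes 4.47%). The 11 that rose in that fit were Col1a1, Col2a1, Col5a1, Col4a1, Col4a2, Col18a1, Col9a3, Col22a1, Col7a1, Col8a1 and Col26a1, and those that fell were Col24a1 and Col25a1. Slide and scan cannot be told apart here.

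**Figure D1:**
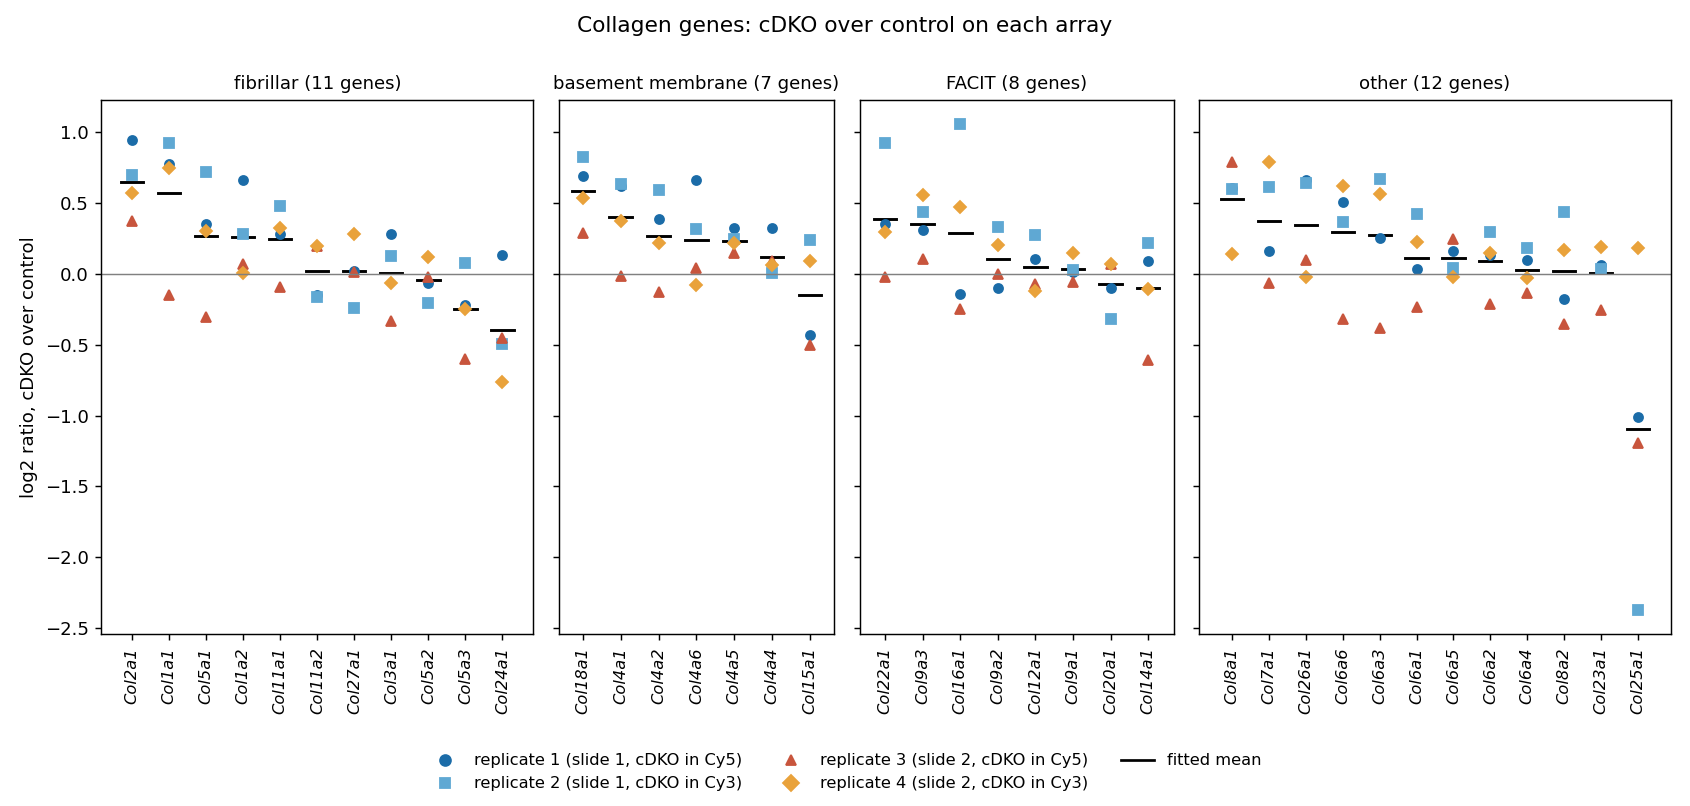
Log2 ratio of cDKO over control (vertical axis) for each of the 38 measured collagen genes (horizontal axis), in 4 classes. Coloured symbols are the 4 arrays and black bars the fitted means. Most bars lie a little above 0, the red triangles of replicate 3 are the lowest symbol for 24 genes, and Col25a1 spans the widest range.

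**Figure D2:**
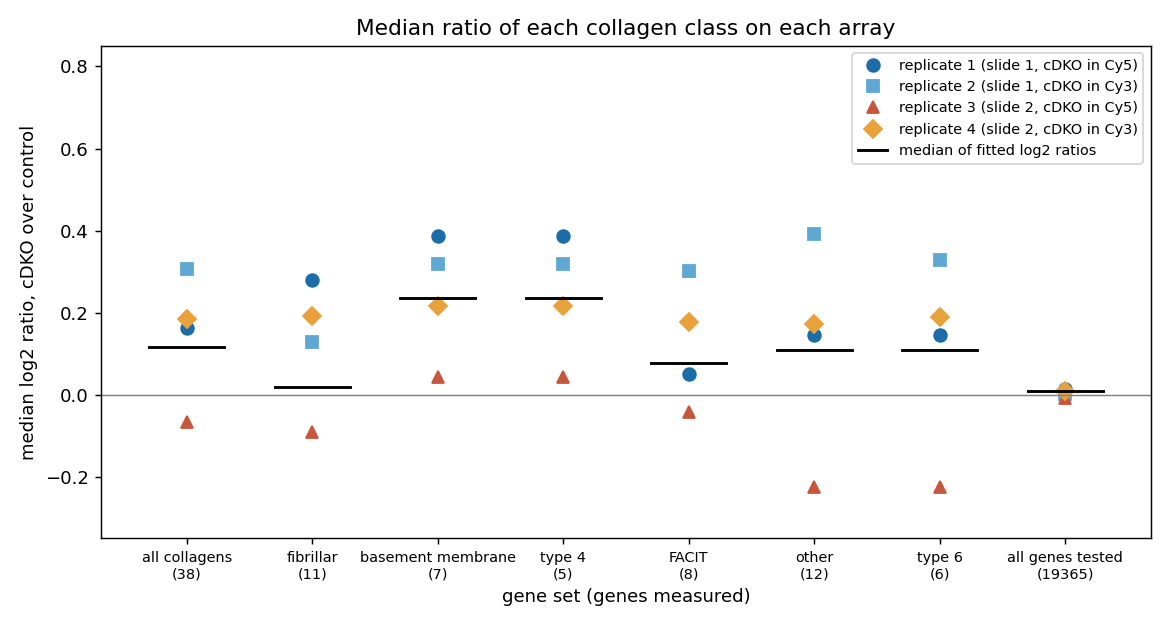
Median log2 ratio of cDKO over control (vertical axis) of the collagen genes in each class on each array, beside the median of the 19365 genes tested. The number of genes is under each label. Replicate 3 is the lowest symbol in every set shown, and the median of all genes stays near 0.

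Among the fibrillar collagens, 8 of 11 measured genes had a fitted ratio above 0 and the median log2 ratio was 0.02. That median moved to 0.11, 0.15, 0.16 and 0.05 when replicates 1 to 4 were left out in turn. Replicate 3 gave a median of -0.09, against 0.28, 0.13 and 0.19 on replicates 1, 2 and 4.

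Col2a1 encodes the chain of type II collagen, the fibril of cartilage. Its log2 level, on a probe at mm9 chr15:97806071-97806130 (minus strand), was 12.68, 12.64, 12.62 and 12.71 in cDKO ureters and 11.73, 11.95, 12.25 and 12.14 in control ureters, in the order of the replicates. The channels did not overlap, the cDKO values lay close together, and the control values of slide 2 were higher than those of slide 1. The fitted log2 ratio was 0.64 ± 0.11 (SE, n = 4 arrays), a 1.56-fold higher level, with an adjusted p of 0.0578. Without replicate 3 the ratio was 0.79 with an adjusted p of 0.0270 (limma). When replicates 1, 2 and 4 were left out in turn, the adjusted p was 0.183, 0.117 and 0.0565. Over the 14 alternatives it ran between 0.00238 and 0.466. None of the cartilage markers rose. Hapln1, which links hyaluronan to aggrecan, fell by 0.54 (log2 ratio -0.54 ± 0.07, adjusted p = 0.0425), Acan, which encodes aggrecan, stood at 0.03 ± 0.07, and the 4 others (Matn1, Comp, Cnmd and Snorc) were not well above background on all arrays of either channel. The summed level of the 2 measured cartilage genes was 2240 to 3169 in cDKO channels and 3162 to 4576 in control channels. Sox9, a transcription factor of cartilage and of the ureteric mesenchyme, had ratios of 1.03, 0.96, 0.30 and 0.36 on replicates 1 to 4 (0.66 ± 0.15, adjusted p = 0.0996). Its part in the Col2a1 difference was not tested.

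Type I collagen, the main fibril of most connective tissues, is made of chains from Col1a1 and Col1a2. Col1a1 had log2 levels of 16.84, 17.21, 16.38 and 16.62 in cDKO ureters and 16.07, 16.29, 16.53 and 15.87 in control ureters (probe at mm9 chr11:94813115-94813174, plus strand). Its cDKO channel was the higher on replicates 1, 2 and 4 and the lower on replicate 3, whose ratio of -0.15 stood apart from 0.77, 0.92 and 0.75. The fitted log2 ratio was 0.57 ± 0.15, with an adjusted p of 0.121, and without replicate 3 it was 0.80 with an adjusted p of 0.0269, while without replicate 1 it was 0.34 with an adjusted p of 0.420 (0.00799 to 0.879 over the 14 alternatives). Col1a2 had levels of 17.40, 17.47, 17.52 and 17.47 in cDKO ureters and 16.74, 17.19, 17.44 and 17.46 in control ureters. Here too the cDKO channels were even, the control channels of slide 2 were close to them, and those of slide 1 were lower. The ratio was 0.26 ± 0.11 (adjusted p = 0.281), so the partner chains shared their sign but neither passed.

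Types III and V assemble with type I in mixed fibrils. Col3a1 stood at 0.00 ± 0.11, with ratios from -0.33 on replicate 3 to 0.28 on replicate 1. The type V chains did not share a sign. Col5a1 stood at 0.27 ± 0.13, Col5a2 at -0.04 ± 0.08 and Col5a3 at -0.25 ± 0.10, with adjusted p values of 0.306, 0.830 and 0.236. Col5a1 and Col5a3 both had their lowest ratio on replicate 3, at -0.30 and -0.60. Of the type XI chains, which start fibrils in cartilage, Col11a1 stood at 0.25 ± 0.09 (adjusted p = 0.209) and Col11a2 at 0.02 ± 0.10.

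Col24a1, a fibrillar collagen known from developing bone, was the fibrillar gene with the lowest ratio. Its log2 levels were 10.32, 10.03, 9.71 and 9.67 in cDKO ureters and 10.19, 10.52, 10.16 and 10.43 in control ureters. The cDKO channel was the lower on replicates 2, 3 and 4 and the higher on replicate 1, and the ranges of the 2 channels overlapped. The ratio was -0.39 ± 0.11 (adjusted p = 0.147), or -0.25 without replicate 3. Col27a1, a fibrillar collagen of growing cartilage, stood at 0.02 ± 0.10. The bone markers Sp7 and Bglap stood at -0.11 and -0.06 and did not pass, and Ibsp and Dmp1 were not well above background on all arrays of either channel.

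**Figure D3:**
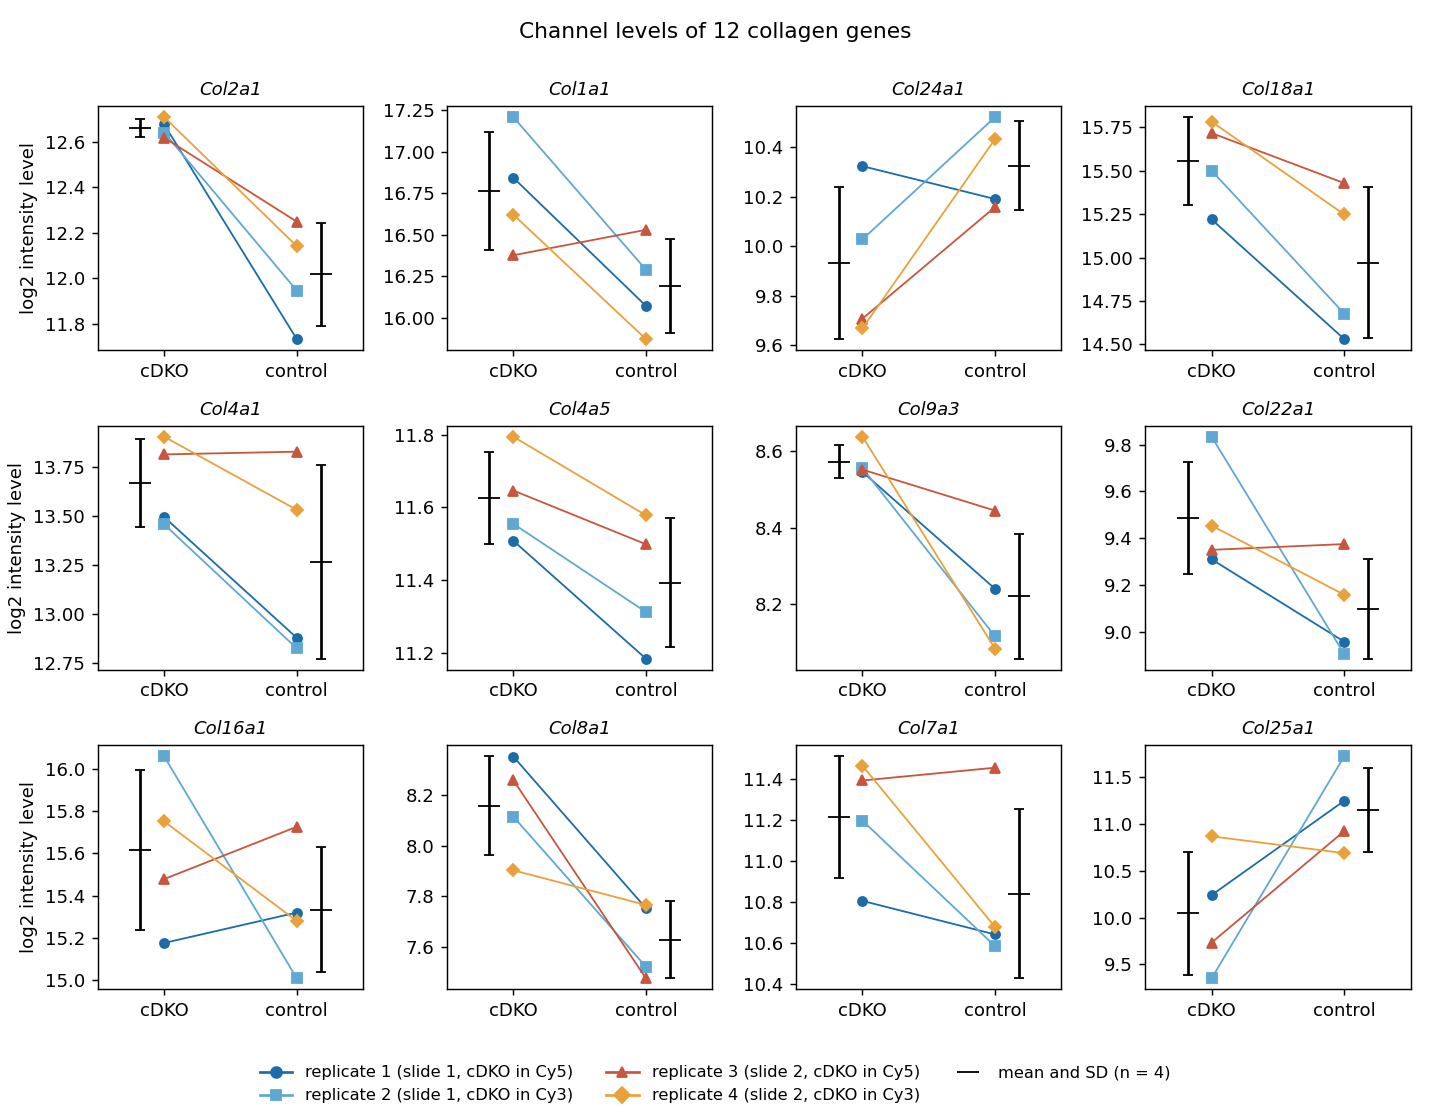
Log2 intensity levels of 12 collagen genes, the 3 with the smallest p in each class, in the cDKO channel (left) and the control channel (right) of each panel. A line joins the 2 channels of an array, black bars give the mean and SD of 4 arrays, and each panel has its own vertical scale that does not start at 0. Col2a1 and Col9a3 have tight cDKO values, and for Col4a1 and Col18a1 both slide 2 control values lie above both slide 1 control values.

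Basement membrane collagens had the highest class median, 0.24, with 6 of 7 measured genes above 0. The median was 0.14 without replicate 1 and 0.39 without replicate 3, and within slide 2 it was 0.077, below the 0.084 of the FACIT collagens. All 5 measured type IV chains lay above 0, between 0.12 and 0.40, and none passed the test.

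Col18a1 encodes the multiplexin of basement membranes from which endostatin is cut. Its levels were 15.22, 15.50, 15.72 and 15.78 in cDKO ureters and 14.53, 14.68, 15.43 and 15.25 in control ureters (probe at mm9 chr10:76514926-76514985, minus strand). The cDKO channel was higher on every array, while the ranges overlapped because both channels were brighter on slide 2. The log2 ratio was 0.58 ± 0.10, with an adjusted p of 0.0587. When replicates 1 to 4 were left out in turn, the adjusted p (limma) was 0.211, 0.122, 0.0452 and 0.0464. Over the 14 alternatives it ran between 0.00215 and 0.544. A separate probe of the gene at chr10:76515790-76515849 gave ratios of 0.52, 0.58, 0.25 and 0.32 and a fitted value of 0.42 ± 0.09, so both probes were above 0 on all 4 arrays. Col15a1, the other multiplexin, stood at -0.15 ± 0.07 on the glycine-repeat probe printed above. That probe was below 0 where cDKO RNA was in Cy5 (-0.44 and -0.50) and above 0 where it was in Cy3 (0.24 and 0.09), and the gene's 2 other probes stood at 0.03 each.

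Col4a1 and Col4a2 encode the chains of the most widespread type IV molecule and lie head to head. Their annotated start sites in RefSeq (GRCm38.p6) are 21 bases apart on opposite strands. The 78 bases that both promoter windows share, with both start sites, are shown because the transcripts of both genes start in them, and the capitals mark GGGCGG, the letters bound by Sp1-type factors.
Col4a1 and Col4a2 (GRCm38.p6 chr8:11312777-11312854, plus strand): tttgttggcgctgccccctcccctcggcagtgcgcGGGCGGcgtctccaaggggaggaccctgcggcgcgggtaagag
GGGCGG occurs once in it on either strand, CCAAT does not, and the 2 searches cannot overlap there. The same stretch of all 32851 promoter windows holds GGGCGG in 16.2% and CCAAT in 9.56%. A match is a description of these letters and not of a bound factor.

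Col4a1 had log2 levels of 13.49, 13.46, 13.82 and 13.91 in cDKO ureters and 12.88, 12.82, 13.83 and 13.53 in control ureters. Its ratios were 0.62, 0.63, -0.01 and 0.37 on replicates 1 to 4, and those of Col4a2 were 0.39, 0.59, -0.13 and 0.22. The neighbours thus shared the order of slides, with both slide 1 arrays above both slide 2 arrays and replicate 3 just below 0. That order was not particular to the pair. Col1a2, Col2a1 and Col18a1, among others, also had both slide 1 ratios above both slide 2 ratios. The fitted values were 0.40 ± 0.12 (adjusted p = 0.151) for Col4a1, or 0.25 without replicate 1, and 0.27 ± 0.11 (adjusted p = 0.262) for Col4a2.

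Col4a5 and Col4a6 lie head to head on the X chromosome, with start sites 1343 bases apart in the same annotation. Col4a5 had levels of 11.51, 11.56, 11.65 and 11.79 in cDKO ureters and 11.18, 11.31, 11.50 and 11.58 in control ureters. Its ratios were all above 0 and close together, at 0.32, 0.24, 0.15 and 0.22, with those of slide 1 again the higher. The fitted value was 0.23 ± 0.07 (adjusted p = 0.173). Col4a6 was less even, with 0.66, 0.32, 0.04 and -0.08 on its brighter probe (0.24 ± 0.12) and a fitted -0.01 ± 0.08 on its other probe. Col4a4 stood at 0.12 ± 0.08, and its neighbour Col4a3 was not well above background on any array.

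Vessels also lay down type IV collagen and Col18a1, and most endothelial markers lay on the other side of 0. Of 6 measured, 5 were below it and Emcn fell (-0.58 ± 0.07, adjusted p = 0.0363). Their summed level was 15314 to 17689 in cDKO channels and 16814 to 23315 in control channels. Mesothelial markers lay below 0 for 3 of 3 measured (summed level 1486 to 2107 in cDKO channels and 2697 to 3107 in control channels), where Msln fell (-0.82 ± 0.09, adjusted p = 0.0282). In the urothelial list 7 of 9 were below 0 and Upk1b fell (-1.43 ± 0.20, adjusted p = 0.0401), with summed levels of 166102 to 216350 in cDKO channels and 174462 to 192064 in control channels. The ureteric mesenchyme list lay above 0 for 8 of 8 members, and Ptch1, the hedgehog receptor, rose (0.55 ± 0.07, adjusted p = 0.0401), with summed levels of 112302 to 164039 in cDKO channels and 82368 to 141488 in control channels. Macrophage markers (summed levels 10744 to 13469.5 in cDKO channels and 14331 to 16534 in control channels) and erythroid markers (152652 to 197106 in cDKO channels and 202331 to 232850 in control channels) lay below 0 in 5 of 5 cases each, and Fcer1g, Hba-x and Hbb-bh1 fell (log2 ratios -0.52, -0.66 and -0.54, adjusted p = 0.0490, 0.0425 and 0.0385). Smooth muscle markers were mixed, with 4 of 5 above 0 and none that passed. Tagln stood at 0.49 ± 0.17 (adjusted p = 0.185) and Myh11 at -0.22 ± 0.09 (adjusted p = 0.238). Of the 5 measured kidney and nephron progenitor markers 4 lay above 0 and 0 passed. Pax8 stood at 0.47 ± 0.13 (adjusted p = 0.139) and Cited1 at 0.12 ± 0.09 (adjusted p = 0.488). Several members lay within 1 SE of 0, among them Cnn1 (0.00 ± 0.08), Krt8 (-0.02 ± 0.10) and Cdh1 (-0.02 ± 0.08), and their side of 0 is not read as a direction. Lrrn4 of the mesothelial list and Nphs1 of the kidney list were not measured. The part of these lists in the collagen ratios was not tested.

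The FACIT collagens had a median log2 ratio of 0.08, with 6 of 8 measured genes above 0, and it was 0.14 without replicate 4. Type IX collagen coats type II fibrils and is made of Col9a1, Col9a2 and Col9a3 chains. Col9a3 had levels of 8.55, 8.55, 8.55 and 8.64 in cDKO ureters and 8.24, 8.12, 8.44 and 8.08 in control ureters. Its channels did not overlap, and the cDKO values were again the tighter ones. The ratio was 0.35 ± 0.08 (adjusted p = 0.0966), beside 0.11 ± 0.07 for Col9a2 and 0.03 ± 0.07 for Col9a1, neither of which passed.

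Col22a1, known at tissue junctions such as that of muscle and tendon, had levels of 9.31, 9.83, 9.35 and 9.45 in cDKO ureters and 8.96, 8.91, 9.38 and 9.16 in control ureters. The cDKO channel was above the control on 3 arrays and level with it on replicate 3 (-0.02), and the fitted ratio was 0.39 ± 0.12 (adjusted p = 0.172), or 0.23 without replicate 2. The tendon markers Mkx and Scx stood at 0.07 and 0.00, and Tnmd was not well above background on any array.

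Col16a1 split by dye on its brightest probe, where the dye term of the fit did not pass (adjusted p = 0.355). Its levels were 15.17, 16.06, 15.48 and 15.75 in cDKO ureters and 15.32, 15.01, 15.73 and 15.28 in control ureters. The ratio was below 0 on the arrays with cDKO RNA in Cy5 (-0.14 and -0.25) and above 0 on those with cDKO RNA in Cy3 (1.06 and 0.47), which the dye term takes up, and the genotype term was 0.28 ± 0.11 (adjusted p = 0.223). It was 0.14 without replicate 2 and 0.43 without replicate 4. The gene's 2 other kept probes stood at 0.19 and 0.07. On replicates 1 to 4 the first read 0.16, 0.38, -0.23 and 0.44. Both arrays with cDKO RNA in Cy3 were again above both with it in Cy5, though only replicate 3 was below 0. The second read -0.03, 0.18, -0.27 and 0.42, with the same signs by dye as the brightest probe.

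Col14a1 and Col12a1 encode FACIT collagens of type I fibrils. Col12a1 stood at 0.05 ± 0.09. Col14a1 was chosen for description after its values were seen, because its probes differed. The glycine-repeat probe printed above had ratios of -0.43, -0.44, -0.62 and -0.58, even across slides and dyes, and a fitted -0.52 ± 0.08 (adjusted p = 0.0532 over the 25591 kept probes). The brighter probe at chr15:55352264-55352323, which stands for the gene, had 0.09, 0.22, -0.61 and -0.11 and a fitted -0.10 ± 0.13. Both are below 0, and they meet on replicate 3 only. Col20a1 stood at -0.07 ± 0.09.

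**Figure D4:**
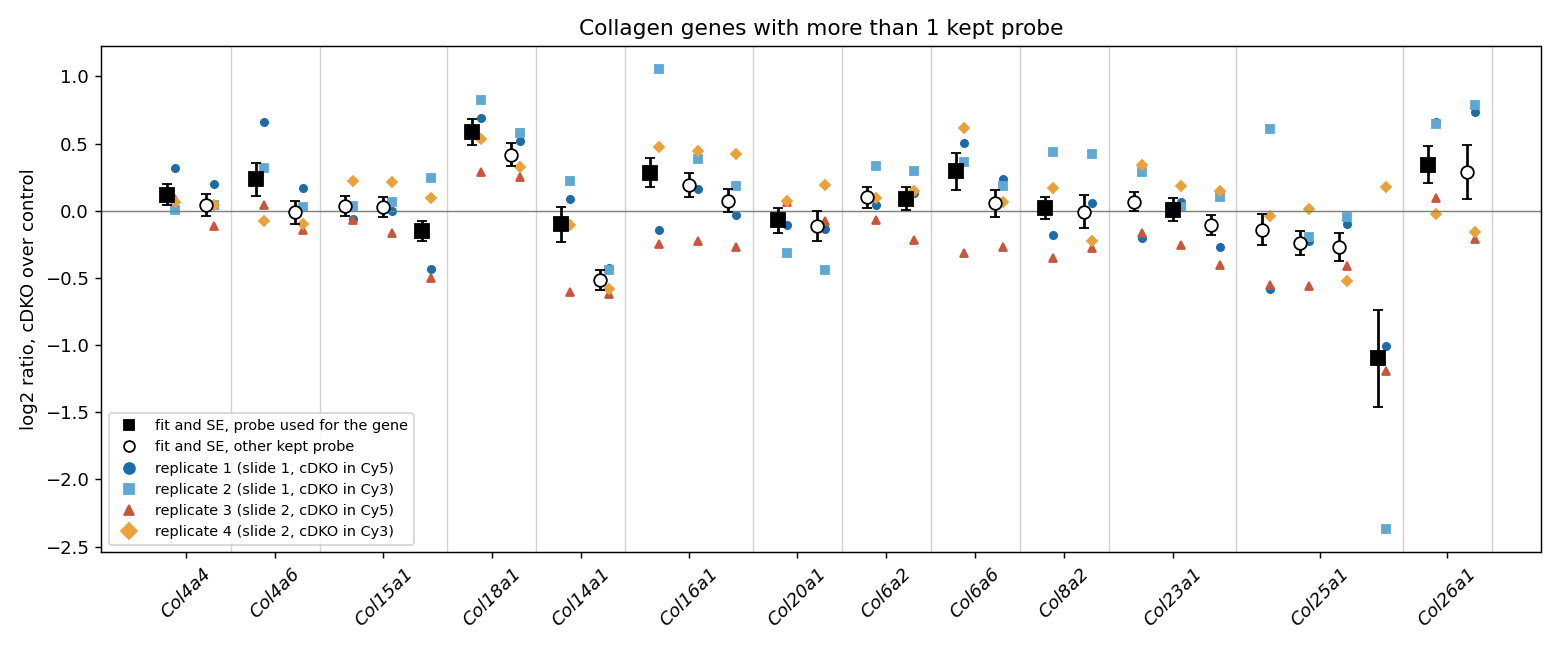
Log2 ratio of cDKO over control (vertical axis) for each kept probe of the 13 collagen genes with more than 1. Black squares are the fitted value of the brightest probe, used for the gene, open circles that of the others, bars are SE, and coloured symbols are the 4 arrays. Both Col18a1 probes lie above 0 on every array, the second Col14a1 probe lies at -0.52, and 1 of the 4 Col25a1 probes lies apart at -1.10.

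Of the 13 genes with more than 1 kept probe, 9 had all probes on the same side of 0. The other 4 (Col4a6, Col15a1, Col8a2 and Col23a1) had fitted values between -0.15 and 0.24, and in none of them did the ranges of the probes over the arrays lie apart. Over all 56 kept probes, 41 were above 0 and 15 below.

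The remaining collagens had a median of 0.11, with 11 of 12 measured genes above 0, and it was 0.066 without replicate 1 and 0.18 without replicate 3. Type VI collagen makes beaded filaments between basement membrane and fibrils. All 6 of its chains lay above 0, with 0.11 ± 0.08 for Col6a1, 0.09 ± 0.09 for Col6a2, 0.28 ± 0.11 for Col6a3 and 0.29 ± 0.14 for Col6a6, and none passed. Their median was 0.15, 0.33 and 0.19 on replicates 1, 2 and 4 and -0.22 on replicate 3, where 1 of the 6 was above 0. Col6a4 and Col6a5 stood at 0.03 and 0.11.

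Col8a1, a network-forming short-chain collagen of vessel walls and the cornea, had its highest ratio on replicate 3, as did Col11a2 and Col6a5. Its levels were 8.35, 8.12, 8.26 and 7.90 in cDKO ureters and 7.75, 7.52, 7.47 and 7.76 in control ureters (mm9 chr16:57624471-57624530, minus strand). The channels did not overlap, and the ratio was largest on replicate 3 (0.79) and smallest on replicate 4 (0.14). The fitted value was 0.53 ± 0.10, a 1.44-fold higher level (adjusted p = 0.0673), and its partner Col8a2 stood at 0.02 ± 0.08. Without replicate 4 the Col8a1 ratio was 0.64 with an adjusted p of 0.0366 (limma, 0.00822 to 0.693 over the 14 alternatives). When replicates 1, 2 and 3 were left out in turn, the adjusted p was 0.184, 0.130 and 0.125.

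Col7a1 encodes the anchoring fibril that ties epithelial basement membrane to the tissue below. It had levels of 10.81, 11.20, 11.39 and 11.47 in cDKO ureters and 10.64, 10.59, 11.46 and 10.68 in control ureters. The ratios were 0.16 and -0.06 with cDKO RNA in Cy5 and 0.61 and 0.79 with cDKO RNA in Cy3, and the genotype term was 0.37 ± 0.08 (adjusted p = 0.0931). Col26a1, whose product was first described in reproductive organs of the mouse, had 0.66 and 0.64 on slide 1 and 0.09 and -0.02 on slide 2 (0.34 ± 0.14, adjusted p = 0.246). Its other probe overlaps the first and stood at 0.29 ± 0.20.

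Col25a1 encodes a transmembrane collagen that mouse motor axons need to innervate muscle. Its brightest probe, at mm9 chr3:129885684-129885743 (plus strand), had levels of 10.24, 9.35, 9.73 and 10.87 in cDKO ureters and 11.25, 11.72, 10.92 and 10.69 in control ureters. The ratios were -1.01, -2.37 and -1.19 on replicates 1 to 3 and 0.18 on replicate 4. The fitted value, -1.10 ± 0.36 (adjusted p = 0.177), is the most negative of the family, a level of 0.467 of the control. Without replicate 4 it was -1.74 with an adjusted p of 0.00612, without replicate 2 it was -0.46 with an adjusted p of 0.108, and with the mean of all kept probes it was -0.44. The value thus rests on 1 probe and most of all on replicate 2, and over the 14 alternatives the adjusted p ran between 7.77e-07 and 0.847. The 3 other probes, 384813 bases or more downstream by their coordinates, stood at -0.24 ± 0.09 (the glycine-repeat probe printed above), -0.14 ± 0.11 and -0.27 ± 0.11. All 4 were below 0, and only the first reached a 2-fold difference. Col23a1, also a transmembrane collagen, stood at 0.01 ± 0.09. The neural crest markers that were measured lay below 0 in 4 of 4 cases without a call. S100b stood at -0.45 ± 0.10 (adjusted p = 0.0988) and Sox10 at -0.20 ± 0.12 (adjusted p = 0.422). The summed levels of the list were 69007 to 87207 in cDKO channels and 65771 to 92007 in control channels, and its part was not tested.

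Beside Col4a3, the genes with no probe past the filter were Col19a1, Col10a1, Col13a1, Col17a1 and Col28a1. Col13a1 and Col17a1 were well above background on 3 of 4 arrays in each channel. Col10a1, the collagen of hypertrophic cartilage, and Col28a1 were not above it on any array, and 1 of the Col19a1 probes was above it on 2 control arrays and no cDKO array.

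Collagen chains are hydroxylated, glycosylated and folded in the endoplasmic reticulum, trimmed outside the cell and then crosslinked. Over the 3 lists of such enzymes and of receptors, 39 of 45 genes were measured. Of these 1 rose and 0 fell, where 0.852% of all genes tested passed. An unadjusted p under 0.05 (limma) was found for 7, against 19.6% of all genes. In the folding and modification list 0 of 19 measured genes passed, 3 had an unadjusted p under 0.05, 7 lay above 0, and the median was -0.04, below the 0.12 of the collagens. Plod2, the lysyl hydroxylase of the telopeptides, had ratios of -0.42, -0.51, -0.35 and -0.51 and a fitted -0.45 ± 0.07 (adjusted p = 0.0526). Fkbp14, a folding isomerase, stood at -0.24 ± 0.08 (adjusted p = 0.171). In the list for propeptide removal and crosslinking 0 of 11 measured genes passed, 1 had an unadjusted p under 0.05, and the median was 0.01. Lox, lysyl oxidase, stood at 0.24 ± 0.07 with all 4 arrays above 0 (adjusted p = 0.159), and Loxl4 at -0.16 ± 0.08 (adjusted p = 0.323).

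Among the collagen receptors 7 of 9 measured genes lay above 0, against 52.7% of all genes, with a median of 0.13. The test was passed by 1 of them, against 0.852% of all genes. Adgrg1, an adhesion receptor that binds type III collagen in the mouse brain, rose, with ratios of 0.70, 0.93, 0.69 and 0.55 (log2 ratio 0.72 ± 0.09, adjusted p = 0.0343). The adjusted p was 0.102 without replicate 1 and 0.0610 without replicate 2, and over the 14 alternatives it ran between 0.00126 and 0.363. Its ligand gene Col3a1 stood at 0.00, as above. No other member of the receptor list passed the test.

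**Figure D5:**
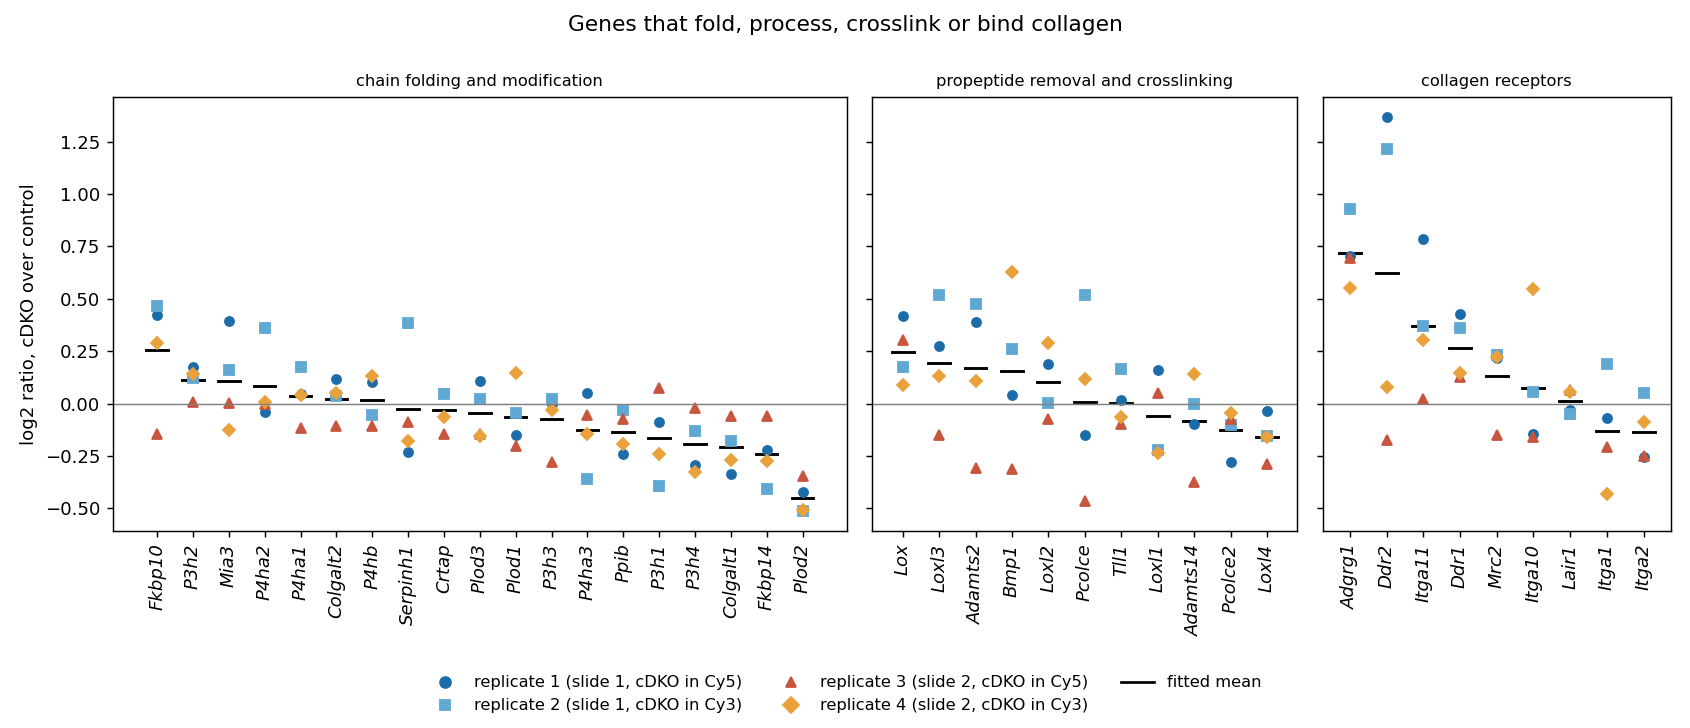
Log2 ratio of cDKO over control (vertical axis) for the 39 measured genes that fold and modify collagen chains, process and crosslink them, or serve as receptors. Coloured symbols are the 4 arrays and black bars the fitted means. Adgrg1 at 0.72 and Plod2 at -0.45 each have their 4 arrays close together, while Ddr2, a discoidin domain receptor, lies at 1.37 and 1.21 on slide 1 and at -0.18 and 0.08 on slide 2.

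Female and male labels were each carried by 2 arrays. The difference of the cDKO effect between them passed for 0 of 38 collagens and for 0 of the 19365 genes tested (limma, 1 residual degree of freedom). The count of 0 is thus not particular to collagens. An unadjusted p under 0.05 was found for 2 collagens, Col25a1 and Col6a6 (all genes 1.07%). In this layout a difference between the sex labels cannot be told apart from a dye bias that differs between the slides.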

How the data were processed

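RNA from ureters was compared on 2-colour Agilent arrays. Per the labels' protocols, 150 ng of total RNA was amplified and labelled. Per the file headers, the scanner software was Agilent Feature Extraction 10.7.3.1. The deposited scanner files give mean and background intensity per channel and processed intensity, and, per the file headers, the red to green ratio as log10. A value table deposited by the authors holds a signed fold, a score with a median of 1 on every array; neither labels nor headers state its centring. Its columns correlated with the red over green ratio at 0.839 and 0.838 on replicates 1 and 3 and at -0.863 and -0.843 on replicates 2 and 4, so positive means higher in cDKO.

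Mean intensity was corrected with normexp (offset 50) and the log2 ratio of the deposited channels was normalized by loess (span 0.3), with control and outlier spots given no weight. The unflagged spots per probe were averaged. To be kept, a probe needed 3 or 4 of its 4 spots marked well above background on each of the 4 arrays in the cDKO channel or in the control channel (25591 of 39429 did), and the brightest kept probe stood for a gene. Probes were named through RefSeq accession (28328), current symbol (3400) or synonym (243), and 7458 kept the name in the file. Channel levels were scaled between arrays (Aquantile) on the log2 scale and are not comparable between probes. The model was fitted with limma 3.58.1 in R 4.3.3 and had a dye and a genotype term (2 residual and 4.53 prior degrees of freedom), two-sided, with Benjamini-Hochberg adjustment over 19365 genes and calls at an adjusted p under 0.05. Errors are SE of the fit, n = 4 arrays, and the number of arrays limits their precision.

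Genes given in full are the 3 with the smallest p in each class and chains that assemble together. From the other lists the called genes, or the 2 with the smallest p, are named. Exceptions are Sox9, Acan, Ddr2, Cnn1, Krt8, Cdh1, the second Col14a1 probe and the unmeasured markers, named after their values were seen. Members, classes and lists were chosen with earlier results of these data known. Sequences are from the scanner files (mm9) and RefSeq (GRCm38.p6). No column lacked a sample.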

Additional observations from a re-analysis of the deposited data

Results flagged for a closer look

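Col1a1 on replicate 3 had a log2 ratio of cDKO over control of -0.15, far from 0.77, 0.92 and 0.75 on replicates 1, 2 and 4. The gap to the nearest of the others was 0.842 of the whole range, above the critical value of Dixon's test for 4 samples. It was the only one found among the 38 collagen genes and 8 gene set medians examined in this way, and chance alone gives about 1 in 20.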

How the results depend on the processing

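The direction of the family median did not turn under any alternative run. It was 0.12, and lay between 0.06 (within slide 2) and 0.22 (within slide 1). The class medians moved farthest for fibrillar collagens within slide 1 (from 0.02 to 0.20) and for basement membrane collagens. The latter went from 0.24 to 0.49 within slide 1, 0.08 within slide 2 and 0.39 without replicate 3. The count of collagens called was 0 with the scanner's processed signals, no filter, within slide 2, a sex term, the mean of all kept probes and the authors' value table. It was 2 with median centring, 2 with no dye term, 13 with slide as a term and 6 within slide 1, and 0 to 3 when 1 replicate was left out. It was 3 without replicate 3 (Col18a1, Col1a1 and Col2a1) and 3 without replicate 4 (Col18a1, Col25a1 and Col8a1). Over all genes the 165 calls became 255 with median centring, 1 with no filter, 258 with no dye term, 2418 with slide as a term, 551 within slide 1, 0 within slide 2, 2 with a sex term, and 34 to 403 when 1 replicate was left out. The single call among enzymes and receptors, Adgrg1, became 2 with median centring, no dye term, within slide 1 or with the mean of probes, 5 with slide as a term, 0 with no filter, within slide 2 or with a sex term, and 0 to 1 when 1 replicate was left out. The cause of these shifts was not tested. The fits within a slide also drop the dye term, which 2 arrays cannot hold beside the genotype term. Within a slide, with a sex or slide term and with 1 replicate left out, the fit has 1 residual degree of freedom. Slide as a random block was not run, because its correlation could not be estimated. No paired analysis was possible because each ratio already sets cDKO against the control of the same array, and no further replicate number links the arrays.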
